A study of Mus musculus with 16 samples.

Results

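The 10 genes described here are members of the Myc network and the amino acid transporters of the plasma membrane, read in single cells of the pubertal mouse mammary gland. They are *Mycn*, *Myc* and *Max*, and the transporter genes *Slc6a15*, *Slc7a5*, *Slc3a2*, *Slc1a5*, *Slc1a4*, *Slc38a1* and *Slc38a2*, out of 17721 genes in the count table. *Mycn* and *Slc6a15* had been chosen by their level in basal cells of the terminal end bud (TEB) against the other locations. Their values in basal cells are therefore given as a description, with no test. The other 8 were taken for their family or function, with earlier results of these data known.

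Nipple (4), duct (6) and TEB (6) fragments came from the mammary glands of C57BL/6 mice. The study describes the mice both as 5 weeks old with *K14-Cre* and the *R26-mTmG* reporter and as 5 to 6 weeks old with or without these alleles, and the labels do not say which fragments carried them. In mice with the alleles the keratin 14 promoter drives Cre, and Cre switches the membrane reporter from tomato to GFP. No fragment was given a drug or a deletion of a gene under study. The labels do not tie fragments to animals, so the p-values measure the spread between fragments, which may share a mouse. Single cells were sorted into wells with a barcode and ERCC spike-in RNA, and the 3' end of each transcript was counted by unique molecular identifiers (UMIs).

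Myc and N-Myc are transcription factors that bind DNA as pairs with Max and raise the expression of genes of ribosome assembly, nucleotide synthesis and cell growth. The transporters bring in the amino acids that such growth uses. *Slc7a5* encodes LAT1, which takes up large neutral amino acids as a pair with the heavy chain CD98 that *Slc3a2* encodes. *Slc38a1* (SNAT1), *Slc38a2* (SNAT2) and *Slc1a5* (ASCT2) carry glutamine and other small neutral amino acids, *Slc1a4* (ASCT1) carries serine, alanine and cysteine, and *Slc6a15* is a sodium-coupled carrier of branched-chain amino acids and proline known mainly from neurons. The TEB is the club-shaped growing tip of the pubertal duct, with dividing cells in its outer (cap) layer. The study describes basal cells of the nipple as mostly quiescent and proposes that stem cells are more frequent there than elsewhere.

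By GENCODE M21 on GRCm38, the build that the study's mm10 reads match, *Mycn* lies at chr12:12936093-12941914 and *Slc6a15* at chr10:103367783-103419377. *Myc* (chr15:61985391-61990374), *Slc38a1* (chr15:96571418-96642913) and *Slc38a2* (chr15:96687392-96699730) share a chromosome, with both *Slc38a* genes side by side. *Slc3a2* lies at chr19:8706882-8723369 and *Slc1a5* at chr7:16781340-16798274. No exon of another annotated gene overlapped the last kilobase of any of the 10 genes, the end from which these counts come. RefSeq promoters (250 bases before to 50 after the start, GRCm38.p6) were found for 5 of the 10: *Max*, *Mycn*, *Slc1a4*, *Slc38a2* and *Slc3a2*. They were searched on both strands for CACGTG, the E-box that Myc-Max pairs bind, and for TGATGNAA, the core of the element that Atf4 and C/EBP factors bind when amino acids are short. The E-box was in 7.15% and the other core in 3.97% of 32851 promoters. The *Slc3a2* promoter searched (chr19:8713848-8714147) lies inside the gene span given above and so belongs to an internal start. The outermost start of that gene was not searched. Of the 5, *Max* held the E-box once and *Slc1a4* the other core once, and no overlap of both motifs was found. Both matches cross the annotated start, and the 30 bases around each are shown 5′ to 3′ on the gene's strand (minus for both) with the match in capitals. The *Slc1a4* match reads on the opposite strand. Neither gene passed a test between locations in the classes below where it could be tested. *Max* was too low to test in estrogen receptor negative (ER-) luminal-like cells, and *Slc1a4* in basal-like and ER- luminal-like cells.
Max, chr12:76962234-76962263: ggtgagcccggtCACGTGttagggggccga
Slc1a4, chr11:20332699-20332728: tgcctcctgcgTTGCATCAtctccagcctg

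Of 1419 deposited cells, 1317 passed the study's limits on UMIs, genes and spike-ins, and fragments held 1856141 to 5233122 UMIs in 83 to 93 cells. Clusters named by marker genes gave 294 basal-like, 426 ER+ luminal-like, 177 ER- luminal-like, 252 fibroblast-like and 78 myeloid-like cells. ER stands for the estrogen receptor. Nearly all nipple and duct basal cells fell in 1 cluster and TEB basal cells in another. The 10 basal markers were detected in all locations, but their summed level was 4160 to 8240 CPM (UMI counts scaled to a common library size) in TEB against 19300 to 31400 in nipple and duct fragments. Basal cells also differed in depth, with a median of 21458 UMIs per cell in nipple, 23039 in duct and 43900.5 in TEB. The UMIs of mouse genes per spike-in UMI were 72.6 ± 1.88 (SD, n = 4), 117 ± 11.4 (n = 6) and 160 ± 14 (n = 6). No cells had identical counts, and 33 of the 95 well codes occurred in every fragment. Levels below are TMM-normalized CPM of the summed counts of a class in a fragment, that is shares of the captured RNA. Less RNA per cell and fewer molecules of a gene per cell cannot be told apart on that scale.

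*Mycn* was not detected in nipple basal cells, was low in duct and was highest in TEB. The 4 nipple fragments held 0 *Mycn* UMIs, duct fragments 0 to 15.1 CPM (median 5.84) and TEB fragments 0 to 48.4 CPM (median 25). TEB and duct overlapped, since TEB fragment T32 held none and duct fragment D52 the 15.1. With a floor of 3 UMIs over the pooled nipple cells, *Mycn* was at least 21.4-fold higher in TEB and at least 4.27-fold higher in duct than in nipple. These floors cover counting error only and leave out the spread between fragments. In the luminal classes the transcript was near 0. ER- luminal-like cells held 0 *Mycn* UMIs at every location, and ER+ luminal-like cells 5 in all. Fibroblast-like cells did hold it, with 18 UMIs in nipple (0 to 8.04 CPM), 6 in duct, all in D61 (16.8 CPM, above every duct basal fragment), and 2 in TEB (0 to 1.96 CPM). RNA of other wells would give 0.493 UMIs in nipple and 0.0241 in duct fibroblasts.

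*Slc6a15* separated the TEB from the other locations more cleanly than *Mycn* did. Nipple fragments N21, N23 and N24 held none and N22 held 1 UMI (1.66 CPM). Duct fragments ran from 0 to 20.8 CPM (median 9.09) and TEB fragments from 70.3 to 96.7 CPM (median 85.5). No TEB fragment overlapped a duct or nipple fragment, and the mean in TEB was 84.3 ± 10.5 CPM (SD, n = 6). The ratio of pooled rates was 191 for TEB against nipple, with an exact 95% interval of 34 to 7550 that covers counting error only. The ER+ luminal-like cells of TEB gave 6 UMIs, where RNA from other wells would give 11.3. The shares of TEB cells with a *Slc6a15* UMI were 3.49% in ER+ (median depth 40338.5 UMIs) and 8.16% in ER- luminal-like cells (median depth 38137 UMIs), and 0.581% and 4.08% at 5000 UMIs per cell, which stand as the background for the basal shares.

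In TEB, 54 of 82 basal cells (65.9%, exact 95% interval 54.6 to 76) held a *Slc6a15* UMI, and 22 (26.8%, 17.6 to 37.8) a *Mycn* UMI. The intervals treat cells as independent and leave out the spread between fragments. At 5000 UMIs per cell the shares were 25.6% and 12.2%. Duct basal cells gave 8.7% and 6.96%, and 3.48% and 4.35% when thinned. In the luminal-like cells of duct the *Slc6a15* shares were 0.948% (ER+) and 0 of 80 cells (ER-, up to 4.51%), so the duct basal share lay above those of its own location and near the 8.16% of ER- cells in TEB. In nipple 1 of 97 cells held a *Slc6a15* UMI and 0 a *Mycn* UMI, which allows up to 3.73% of cells with a UMI. That bound covers counting error at this depth and does not limit the cells that express the gene. Both transcripts were in 15 of the 82 TEB cells and neither in 21. Median depth was 48059 UMIs in cells with and 35398.5 in cells without *Slc6a15*, and 44513 and 43900.5 for *Mycn*. Whether the transcripts occur together more often than their shares give was not tested. Phase calls gave pooled levels without a spread between fragments. Pooled *Slc6a15* was 85.2 CPM in 45 TEB basal cells called G1 and 89.8 CPM in the 37 called S or G2M, and *Mycn* was 29 and 29.9 CPM.

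As CPM, *Myc* had the opposite order. Nipple basal fragments held 287, 325, 382 and 301 CPM, duct fragments 146 to 278 CPM (median 219) and TEB fragments 60.9 to 246 CPM (median 121). The nipple values lay above every duct and TEB value, while duct and TEB overlapped. *Myc* was higher in nipple than in TEB by a log2 of 1.33 (SE 0.282, edgeR quasi-likelihood test with Benjamini-Hochberg adjustment over all genes, adjusted p = 0.00074). It was not called for nipple against duct (0.57, SE 0.279, edgeR adjusted p = 0.29) or duct against TEB (0.77, SE 0.26, edgeR adjusted p = 0.053). Per spike-in UMI the 3 differences of *Myc* were 0.05, -0.12 and 0.16 for nipple versus TEB, nipple versus duct and duct versus TEB (edgeR adjusted p = 0.9, 0.8 and 0.67), so that neither the order nor the call held on that scale. *Max*, the shared partner, was at 15.3 ± 8.92, 18.4 ± 14.6 and 16.2 ± 11 CPM (SD, n = 4, 6 and 6) and passed no test, although these low counts give a wide SE (0.919 for nipple against TEB).

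**Figure D1:**
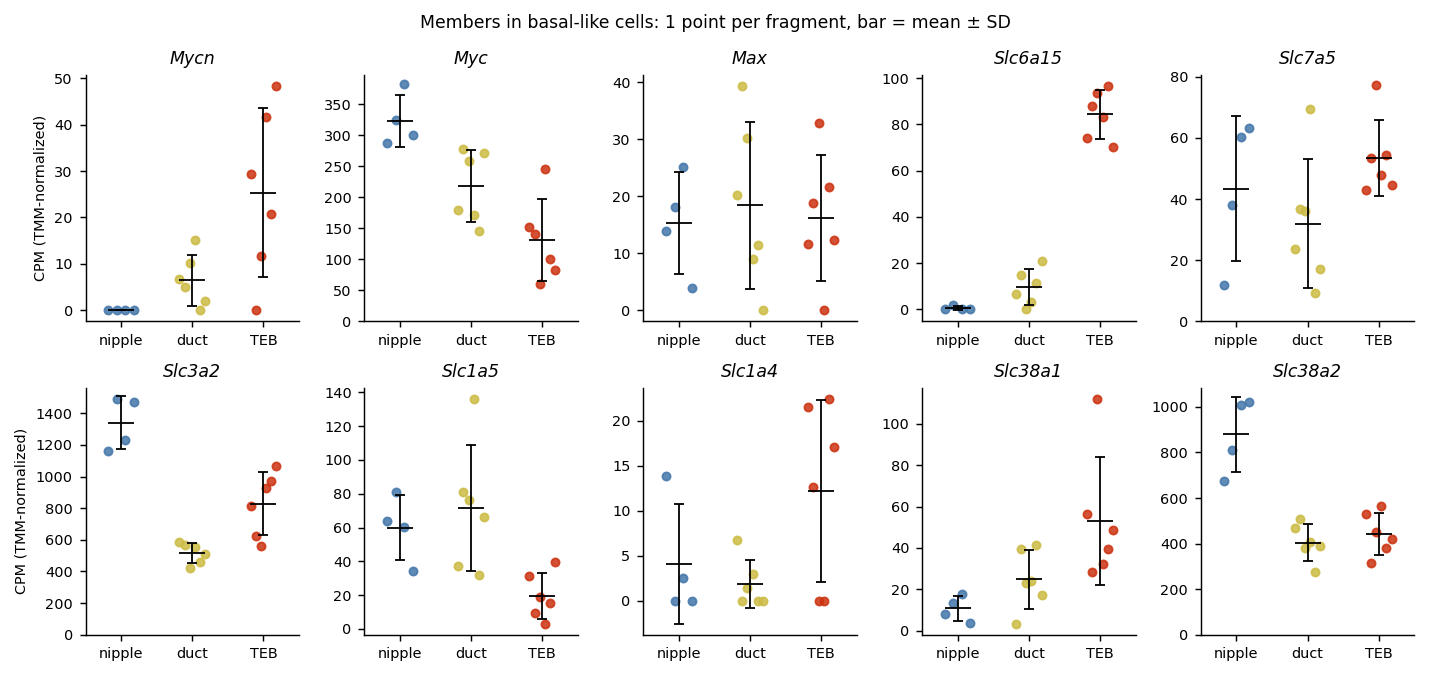
Level of each of the 10 genes in basal-like cells, in TMM-normalized CPM on the vertical axis, for 4 nipple, 6 duct and 6 TEB fragments; each point is 1 fragment and the black bars are the mean and SD. Mycn and Slc6a15 are lowest in nipple and highest in TEB, Myc has a mean of 323 CPM in nipple and 131 in TEB, and Slc3a2 and Slc38a2 are highest in nipple as CPM but not per spike-in UMI.

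*Slc3a2*, the CD98 heavy chain, had the smallest adjusted p of the 7 members tested in basal cells, for nipple against duct. Its nipple to TEB order depended on the scale (CPM here, spike-in UMIs further on). Nipple fragments held 1160, 1490, 1230 and 1470 CPM, duct fragments 425 to 587 CPM (median 534) and TEB fragments 564 to 1070 CPM (median 874). The nipple fragments lay above all others, and duct and TEB overlapped only where D31 and D32 met T33. By edgeR the log2 difference was 1.38 for nipple against duct (SE 0.16, adjusted p = 2.7e-07), 0.69 for nipple against TEB (SE 0.159, adjusted p = 0.0019) and -0.69 for duct against TEB (SE 0.146, adjusted p = 0.0011). Its light chain partner *Slc7a5* was at 43.4 ± 23.8, 32 ± 21.2 and 53.4 ± 12.5 CPM (SD) in nipple, duct and TEB, with overlapping fragments and no call.

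The glutamine carriers split by location. As CPM, though not per spike-in UMI, *Slc38a2* was highest in nipple, at 675, 812, 1010 and 1020 CPM, with duct at 274 to 507 (median 399) and TEB at 314 to 563 (median 435). All nipple values lay above all others, by a log2 of 1.12 over duct (SE 0.183, edgeR adjusted p = 0.00012) and 0.99 over TEB (SE 0.182, edgeR adjusted p = 0.00013). Its neighbour on the chromosome, *Slc38a1*, had the reverse order. It stood at 7.96, 13.3, 17.6 and 3.83 CPM in nipple, 3.37 to 41.2 (median 23.6) in duct and 28.3 to 112 (median 43.8) in TEB. Nipple and TEB did not overlap, and the log2 difference was -2.30 (SE 0.68, edgeR adjusted p = 0.015). The adjusted p was 0.0545 without nipple fragment N24 and 0.0538 without TEB fragment T33.

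As CPM, *Slc1a5* was lower in TEB than elsewhere, and neither call held per spike-in UMI (values below). It held 63.7, 81.2, 60.3 and 34.5 CPM in nipple, 32 to 136 (median 71.3) in duct and 3.2 to 39.9 (median 17) in TEB. TEB overlapped the others only through T43, which lay above N24, D31 and D61. The log2 difference was 1.78 for duct against TEB (SE 0.48, edgeR adjusted p = 0.011) and 1.53 for nipple against TEB (SE 0.517, edgeR adjusted p = 0.034). Without duct fragment D52 the first adjusted p was 0.0572, and without N21, N22, N23, T32, T34 or T42 in turn the second was 0.0605 to 0.11. *Slc1a4* was too low in basal cells for the test, with 8, 4 and 61 UMIs in nipple, duct and TEB.

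Beside these results, fibroblast markers (9 or 10 of 10 detected in each location) summed to 1200 to 2560 CPM in nipple basal sums, 398 to 660 in duct and 353 to 663 in TEB, and their part in the differences was not tested. In all, 5 of the 8 genes not chosen on this contrast passed for nipple against TEB, 4 higher in nipple and 1 in TEB, with 7 of the 8 tested. Of all 7316 genes tested, 18.7% passed, 8.9% higher in nipple and 9.81% higher in TEB. For nipple against duct 2 passed, both higher in nipple (all genes: 6.29%, 2.23% higher in nipple). For duct against TEB 2 passed, 1 in each direction (all genes: 10.4%, 6.48% higher in duct and 3.91% higher in TEB). When only cells called G1 were summed, which left 4 TEB fragments, 0 passed for nipple against TEB. The directions were as before, with *Myc* at 0.94 (edgeR adjusted p = 0.0716), *Slc38a2* at 0.78 (0.0537), *Slc3a2* at 0.47 (0.116), *Slc1a5* at 1.54 (0.149) and *Slc38a1* at -2.22 (0.24). G1 calls covered 76.3%, 65.2% and 54.9% of basal cells in nipple, duct and TEB, and the part of the cell cycle in these differences was not tested.

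The order of nipple and TEB depended on the scale for the genes that were higher in nipple. Taken per spike-in UMI, a scaling added after the data were seen, the median log2 difference of all genes in basal cells was -1.35 for nipple versus TEB, -0.715 for nipple versus duct and -0.662 for duct versus TEB. The scaling assumes an equal amount of spike-in RNA in every well, which was not tested. On that scale *Slc3a2* reversed for nipple against TEB (-0.60, SE 0.173, edgeR adjusted p = 0.004), *Slc38a2* was -0.30 (SE 0.198, adjusted p = 0.19) and *Myc* 0.05 (SE 0.292, adjusted p = 0.9). *Slc1a5* was 0.27 (SE 0.54, edgeR adjusted p = 0.67). So relative to the RNA of the cell these 4 genes were higher in nipple, and per spike-in molecule none of them was called higher there than in TEB. *Slc3a2* was higher in nipple than in duct on both scales (0.69 per spike-in UMI, SE 0.169, edgeR adjusted p = 0.0029), and *Slc38a2* was 0.43 there (SE 0.196, edgeR adjusted p = 0.11). Duct against TEB, *Slc3a2* was -1.29 (SE 0.156, edgeR adjusted p = 1.5e-07), *Slc38a2* -0.73 (SE 0.179, edgeR adjusted p = 0.0024) and *Slc1a5* 1.19 (SE 0.493, edgeR adjusted p = 0.067). *Slc38a1* was lower in nipple than in TEB on both (-3.62 per spike-in UMI, SE 0.68, edgeR adjusted p = 4.2e-05), and *Slc7a5* was called lower in nipple than in TEB only per spike-in UMI (-1.63, SE 0.553, edgeR adjusted p = 0.013). Per spike-in UMI 3 of the 8 genes passed in nipple versus TEB (55.6% of all genes), 2 in nipple versus duct (22.6%) and 4 in duct versus TEB (29%). *Slc6a15* and *Mycn* were lower in duct than in TEB by log2 values of -3.76 and -2.52 on that scale.

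**Figure D2:**
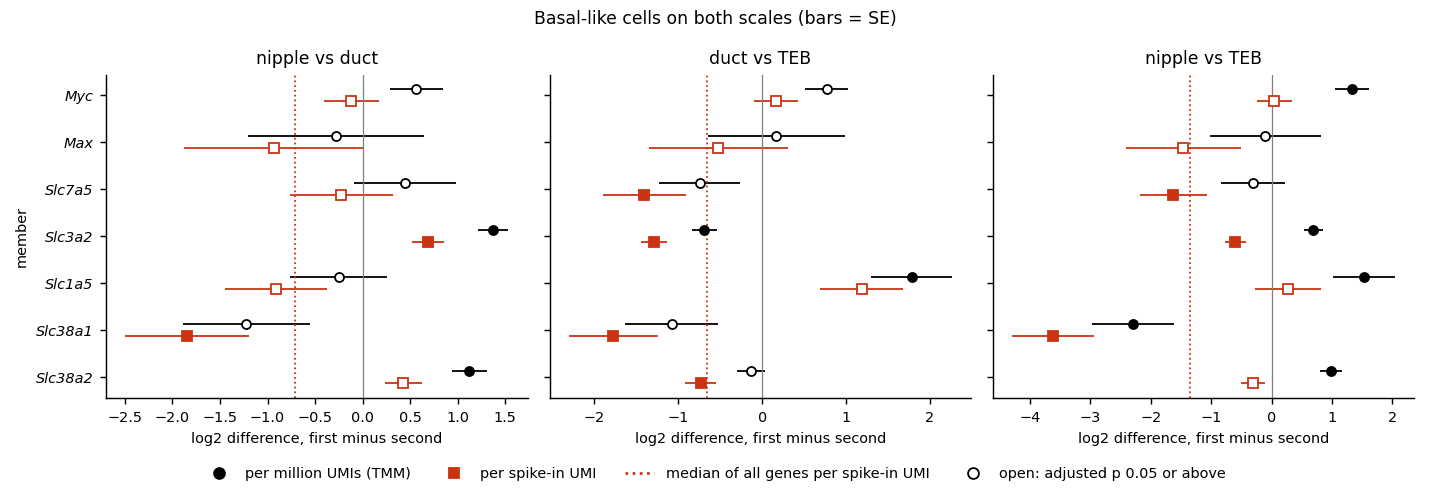
Log2 difference between locations (horizontal axis, first location minus second, bars are the SE) in basal-like cells for the 7 tested genes not chosen on this contrast, as CPM (black circles) and per spike-in UMI (red squares); filled symbols have an edgeR adjusted p under 0.05 and the dotted line is the median of all genes per spike-in UMI. For nipple against TEB, Slc3a2 lies at 0.69 on the first scale and -0.60 on the second, while Slc38a1 lies below 0 on both.

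In ER+ luminal-like cells, which carry the hormone receptors, *Slc3a2* was the only member called. It held 244, 472, 392 and 314 CPM in nipple, 273 to 340 (median 310) in duct and 170 to 234 (median 188) in TEB, so that TEB lay below every other fragment. By edgeR the log2 difference was 0.84 for nipple against TEB (SE 0.174, adjusted p = 0.0022) and 0.65 for duct against TEB (SE 0.156, adjusted p = 0.021). In these cells the median of all genes per spike-in UMI was 0.00806 for nipple against TEB, and *Slc3a2* was 0.86 on that scale (SE 0.186, edgeR adjusted p = 0.0033). It was the only member called per spike-in UMI too, where 5.22%, 2.11% and 2.55% of all genes were called for nipple versus TEB, nipple versus duct and duct versus TEB. *Myc* stood at 124 ± 71.7, 120 ± 27.6 and 98.7 ± 32 CPM (SD, n = 4, 6 and 6) and *Slc38a1* at 65.7 ± 37.5, 75.3 ± 16.6 and 94 ± 26, with overlap and no call. *Slc1a4* was at 22.6 ± 17.3 CPM in nipple and 5.23 ± 2.56 in TEB, a log2 of 2.09 (SE 0.764) with an edgeR adjusted p of 0.11. Of 10 genes 7 were tested, and 1 passed in nipple versus TEB (5.56% of all genes), 0 in nipple versus duct (1.98%) and 1 in duct versus TEB (1.69%). For nipple against duct 0 also had an unadjusted p under 0.05 in edgeR, and DESeq2 called 0.

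In ER- luminal-like cells, the class that holds luminal progenitors, *Myc* was low in TEB. It held 493, 486, 314 and 375 CPM in nipple, 208 to 671 (median 297) in duct, and 156, 158, 137 and 39 in the 4 TEB fragments with at least 5 such cells. The TEB values lay below all others, by a log2 of 1.78 against nipple (SE 0.378, edgeR adjusted p = 0.0038) and 1.67 against duct (SE 0.355, edgeR adjusted p = 0.0085). *Slc3a2* held 911, 1010, 906 and 1140 CPM in nipple, 482 to 1150 (median 732) in duct and 399, 557, 424 and 309 in TEB. Nipple lay above all TEB fragments (log2 1.23, SE 0.242, edgeR adjusted p = 0.0016), and duct overlapped TEB (0.86, SE 0.224, edgeR adjusted p = 0.042). That last call was lost without any of D31, D61, D62, T32, T34 and T42, at 0.0702 to 0.195.

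*Slc38a2* in ER- cells was highest in duct, not in nipple as in basal cells. It held 206, 310, 275 and 302 CPM in nipple, 375 to 437 (median 408) in duct and 264, 210, 105 and 151 in TEB. Duct lay above all other fragments, by a log2 of 1.16 over TEB (SE 0.256, edgeR adjusted p = 0.011), which was 0.0566 without T34 and 0.0639 without T42. Nipple against duct was -0.58 (SE 0.251, edgeR adjusted p = 0.35). *Max* had 37 UMIs in nipple, 50 in duct and 3 in TEB and was below the filter, as were *Mycn*, *Slc6a15*, *Slc7a5*, *Slc1a5* and *Slc1a4*. Of the 4 genes tested, 2 passed between nipple and TEB, both higher in nipple, where 4.65% of all genes did (3.09% higher in nipple, 1.55% higher in TEB). Between nipple and duct 0 passed (1.66% of all genes), and between duct and TEB 3, all higher in duct (1.43%, 1.25% higher in duct). For nipple against duct 1 gene, *Slc38a2*, had an unadjusted p under 0.05 in edgeR, and DESeq2 called 0. With at least 10 cells per fragment, or with cells called G1 only, 1 TEB fragment was left and 0 of these genes passed. G1 calls covered 70.8%, 53.8% and 32.7% of ER- cells in nipple, duct and TEB. Per spike-in UMI *Myc* was 0.89 for nipple against TEB (edgeR adjusted p = 0.093) and 1.46 for duct against TEB (0.051), where the median of all genes was -0.899 and -0.223. *Slc3a2* was 0.34 for nipple against TEB (edgeR adjusted p = 0.42) and 0.69 for duct against TEB (0.35), and *Slc38a2* 0.97 for duct against TEB (0.18). The only ER- call per spike-in UMI was *Slc38a2* for nipple against duct (-1.27, SE 0.305, edgeR adjusted p = 0.0075). Of all genes 21.9%, 11.1% and 0.536% were called on that scale for nipple versus TEB, nipple versus duct and duct versus TEB. Markers of other cells moved with location in this class. Basal markers (9 of 10 detected in each location) summed to 1920 to 3730 CPM in nipple, 337 to 832 in duct and 57.6 to 185 in TEB. Fibroblast markers (all 10 detected) summed to 1260 to 1800, 162 to 388 and 156 to 354 CPM. Their part in these differences was not tested.

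In fibroblast-like cells no member was called. One cluster held 115 of the 116 nipple, 29 of the 38 duct and 16 of the 98 TEB cells. Another, with *Pi16* as its top gene, held 64 of the TEB cells. The part of this split in the levels was not tested. *Myc* was at 226 ± 26.1, 308 ± 122 and 360 ± 89 CPM (SD, n = 4, 4 and 5) in nipple, duct and TEB stroma. Its log2 difference for nipple against TEB was -0.68 (SE 0.285, edgeR adjusted p = 0.37). *Slc3a2* was at 1180 ± 160, 1090 ± 120 and 943 ± 218 CPM, *Slc38a2* at 346 ± 48.4, 425 ± 53.6 and 367 ± 105, and *Slc1a5* at 174 ± 42.6, 225 ± 58.7 and 191 ± 93.8. In edgeR 0 of the 7 tested genes passed in each of the 3 pairs, with 1 (*Myc*, nipple against TEB) at an unadjusted p under 0.05 in the first pair and 0 in the others, and DESeq2 also called 0 in each. Of all genes 1.54% passed in nipple versus TEB, 0.2% in nipple versus duct and 0.271% in duct versus TEB.

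**Figure D3:**
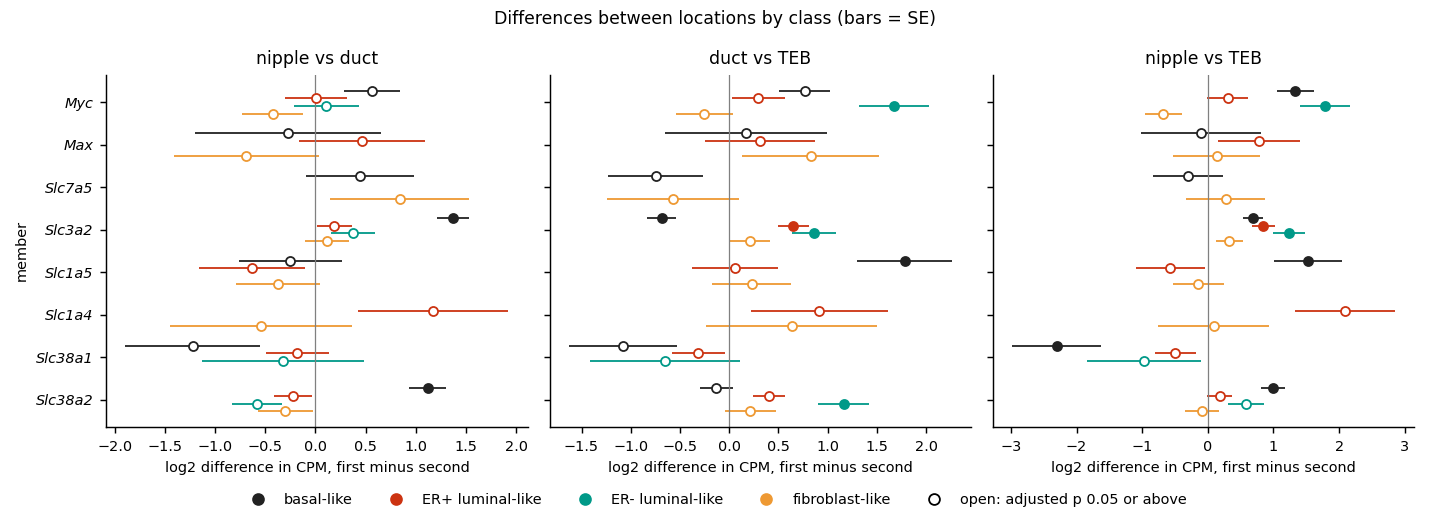
Log2 difference in CPM between locations (horizontal axis, first location minus second, bars are the SE) for 8 members in the 4 cell classes tested; filled points have an edgeR adjusted p under 0.05, and a class has no point where the gene was too low to test. Slc3a2 lies above 0 in the 3 epithelial classes for nipple against TEB, in basal-like cells only as CPM and not per spike-in UMI, whereas for duct against TEB it is -0.69 in basal-like and 0.65 in ER+ luminal-like cells.

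Whether the locations differed in the same way in each class was tested within fragments that held both classes. Against ER+ luminal-like cells (16 fragments) 2 of the 8 genes passed, *Slc3a2* (edgeR adjusted p = 1.6e-05) and *Slc38a2* (edgeR adjusted p = 0.0013), where 6.61% of all genes did. Against ER- luminal-like cells (14 fragments) the same 2 passed, at edgeR adjusted p of 0.0031 and 0.00087, where 2.77% of all genes did. For *Slc3a2* the step from nipple to duct in basal-like cells minus that in ER+ cells was -1.30 and minus that in ER- cells -0.95 (log2), while the same differences for the step from nipple to TEB were 0.03 and 0.39. For *Slc38a2* the step from nipple to duct differed by -1.44 and -1.73, and that from nipple to TEB by -0.91 and -0.48. *Myc* did not pass in either (edgeR adjusted p = 0.13 and 0.59), nor did *Slc1a5* (edgeR adjusted p = 0.16 and 0.19). Per spike-in UMI both genes passed against both classes, where 27.2% (ER+) and 3.05% (ER-) of all genes did, and *Slc38a1* also passed against ER+ cells (edgeR adjusted p = 0.0028). The terms moved with the scale. For *Slc3a2* they were then -0.64 (nipple to duct) and 1.43 (nipple to TEB) against ER+ and -0.94 and 0.90 against ER- cells, and for *Slc38a2* -0.79 and 0.49 against ER+ and -1.73 and 0.03 against ER- cells.

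Levels across classes are given as a description, since the classes were clustered on these genes among others. Over all fragments *Slc3a2* was at 1060 ± 192 CPM in fibroblast-like (SD, n = 13), 1060 ± 259 in myeloid-like (n = 7), 840 ± 358 in basal-like cells (n = 16). It was at 732 ± 287 CPM in ER- (n = 14) and 279 ± 84 in ER+ luminal-like cells (n = 16). ER+ cells had the lowest mean, and the first 4 classes overlapped. The ER+ range of 170 to 472 CPM also overlapped those of ER- (309 to 1150) and basal-like fragments (425 to 1490). These values pool locations, and within nipple the mean was higher in basal-like (1340 CPM) than in fibroblast-like cells (1180 CPM). *Myc* was at 320 ± 181 in ER- luminal-like, 303 ± 99.3 in fibroblast-like, 211 ± 94.4 in basal-like cells, 113 ± 41.9 in ER+ luminal-like and 44.1 ± 34 in myeloid-like cells, with overlapping ranges between neighbours in that order. Within nipple basal-like cells (323 CPM) were above fibroblast-like cells (226 CPM). *Slc1a5* was highest in fibroblast-like cells (196 ± 68.6 CPM against 21.8 to 49.1 as means elsewhere). *Slc38a1* was highest in myeloid-like cells (212 ± 154), reached 79.9 ± 27.2 in ER+ luminal-like and only 2.3 ± 3.77 in fibroblast-like cells. *Max* ranged from means of 16.5 to 37 CPM, *Slc7a5* from 6.42 to 48.7, *Slc1a4* from 1.28 to 23.7 and *Slc38a2* from 253 to 537.

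**Figure D4:**
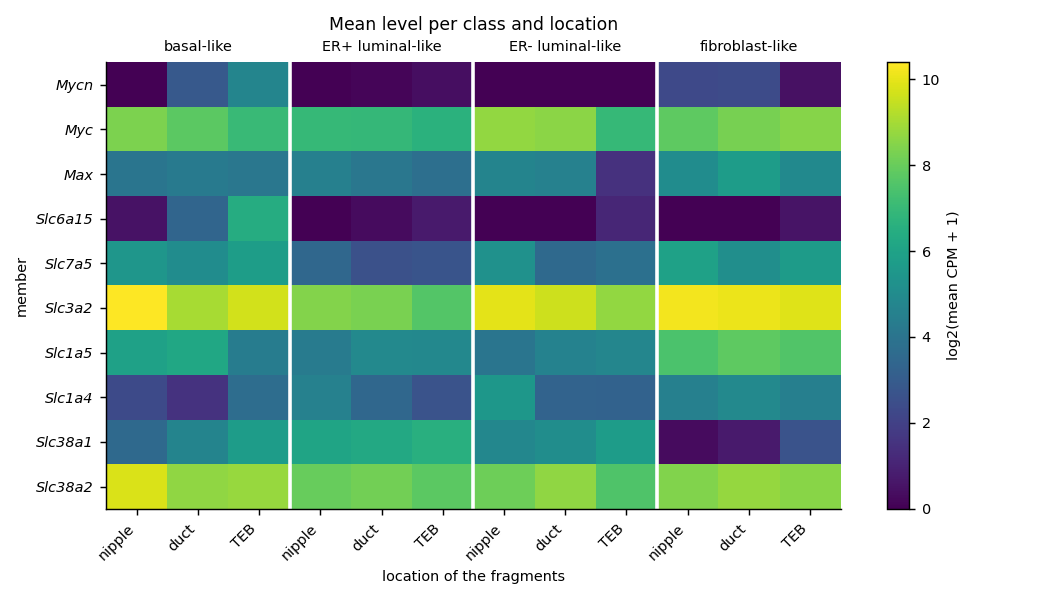
Mean level of each gene as log2(mean CPM + 1), shown by colour, for nipple, duct and TEB fragments (horizontal axis) of 4 cell classes. Mycn and Slc6a15 have their highest levels in basal-like TEB cells, and Slc38a1 is near 0 in nipple and duct fibroblast-like cells.

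Genes around these pathways were read from fixed lists. For nipple against TEB in basal cells, 10 of 21 tested genes of the amino acid response, the Atf4 program that answers a shortage of amino acids, were higher in nipple and 1 in TEB. The list's median log2 was 1.01, against -0.0545 for all genes. Among all 7316 genes 8.9% were higher in nipple and 9.81% in TEB. *Eif4ebp1*, a repressor of translation, was at 682 ± 39.8 against 214 ± 71.1 CPM, *Chac1*, which breaks down glutathione, at 156 ± 57.1 against 20.9 ± 6.82, and *Cebpb* at 318 ± 120 against 120 ± 44.5. *Phgdh*, the first enzyme of serine synthesis, was the only one of the list higher in TEB (172 ± 75 against 86.6 ± 16 CPM). The aminoacyl-tRNA synthetases, which load amino acids onto tRNA, had 8 of 20 higher in nipple and 0 in TEB (median 0.52), such as *Nars* (1290 ± 240 against 383 ± 85.5 CPM) and *Gars* (303 ± 35.2 against 93.7 ± 23.8). Per spike-in UMI 1 of 21 genes of the amino acid response was higher in nipple and 6 in TEB. Of 20 synthetases 0 were then higher in nipple and 10 in TEB. The medians were -0.299 and -0.774 against -1.35 for all genes, 55.6% of which were called in either direction. For nipple against duct 11 of the 21 response genes were higher in nipple and 0 in duct as CPM (median 1.52). Of all genes 2.23% were higher in nipple in that pair. Per spike-in UMI 4 of the 21 were higher in nipple and 0 in duct (median 0.862 against -0.715 for all genes). On that scale 22.6% of all genes were called in either direction. The fibroblast markers given above were also higher in nipple basal sums. Fibroblast-like cells held a summed amino acid response of 5720 to 7070 CPM in nipple and 3500 to 6810 in TEB. Basal cells held 4380 to 5100 CPM in nipple and 1900 to 3650 in TEB. The mean estimate of RNA from other wells was 9.26% in nipple and 10.3% in TEB basal cells. In ER+ luminal-like cells 5 of 22 response genes were higher in nipple than in TEB and 0 lower, on both scales. Of all genes 5.56% (CPM) and 5.22% (per spike-in UMI) were called there in either direction. Fibroblast markers in these ER+ sums were 942 to 2360 CPM in nipple and 190 to 446 in TEB. The part of fibroblast RNA in these differences was not tested.

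Among other amino acid transporters 2 of 8 tested genes were higher in nipple, *Slc7a1* for arginine and lysine (207 ± 53.2 against 61.3 ± 25.2 CPM) and *Slc6a6* for taurine (192 ± 32.2 against 77.7 ± 35.4). The glutamate carrier *Slc1a3* was higher in TEB (54.1 ± 26.7 against 8.71 ± 14.3 CPM). The shares of all genes were 8.9% higher in nipple and 9.81% higher in TEB, as above. Per spike-in UMI 0 of the 8 tested transporters were higher in nipple and 3 in TEB (median -0.704), with 55.6% of all genes called in either direction. The cystine carrier *Slc7a11* was higher in TEB than in duct (65.7 ± 60.2 against 4.21 ± 2.56 CPM), with no overlap. Of the amino acid response, 4 genes were higher in TEB than in duct and 1 lower, of 21, among them *Ddit3* (175 ± 60.3 against 30 ± 25.2 CPM) and *Herpud1* (318 ± 141 against 65.6 ± 42), both known also from stress of the endoplasmic reticulum. Among all genes 3.91% were higher in TEB and 6.48% in duct. Per spike-in UMI 10 of the 21 were higher in TEB and 0 in duct, with 29% of all genes called in either direction.

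Of 29 textbook Myc targets tested for nipple against TEB in basal cells, 10 were higher in nipple and 2 in TEB as CPM (median 0.45). Among all genes 8.9% were higher in nipple and 9.81% in TEB as CPM. Per spike-in UMI 0 of the 29 targets were higher in nipple and 17 in TEB (median -0.858). On that scale the median of all genes was -1.35, and 55.6% of them were called in either direction. The targets higher in nipple as CPM included the ribosome assembly factors *Nolc1* (320 ± 48.7 against 94.3 ± 27.1 CPM, nipple against TEB) and *Nop58* (688 ± 158 against 321 ± 87.9). The 2 higher in TEB act in the cell cycle, *Ccnd2* (671 ± 95.7 against 99.6 ± 30.3) and *Cdk4* (530 ± 126 against 159 ± 29.3). None of the 6 tested genes of the Myc network, partners and antagonists of Max, was called (median 0.565), and 14 of 17 cycling genes were higher in TEB with 0 higher in nipple. In ER- luminal-like cells *Myc* was also higher in nipple as CPM, with no call per spike-in UMI. There 0 of 24 targets were higher in nipple and 4 in TEB as CPM (median -0.511): *Cdk4*, *Hspe1*, *Nme1* and *Npm1*. In these cells 8 of 19 amino acid response genes and 4 of 20 synthetases were higher in nipple and 0 in TEB (medians 1.54 and 0.655, all genes -0.0267). Of all genes tested in this class, 3.09% were higher in nipple and 1.55% in TEB. Per spike-in UMI the counts in nipple and TEB were 5 and 1 for the amino acid response, 1 and 1 for the synthetases and 0 and 16 for the targets. On that scale 21.9% of all genes were called in either direction, and their median was -0.899. The basal and fibroblast markers given above for these cells were also higher in nipple.

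Over the 16 basal fragments, the tested genes whose log2(CPM + 1) followed *Slc6a15* most closely were *Emb* (Pearson r = 0.913), *Ddost* (0.902), *Cdk4* (0.899), *Pdia6* (0.897) and *Acot1* (0.884). Those closest to *Mycn* were *Sema6a* (0.852), *Golim4* (0.828), *Sec11c* (0.816), *Pdzd11* (0.805) and *Hn1* (0.801). The fragments share their location and depth, so these values mainly order genes that differ between locations and are given without a test.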

How the data were processed

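Plate-based 3′ SMART-seq was read for 16 fragments (4 nipple, 6 duct, 6 TEB), all used. The authors trimmed reads (Trim Galore), extracted barcodes (UMI-tools), kept unique STAR alignments to mm10 and deposited raw UMI counts per gene and cell, made with featureCounts and UMI-tools. Versions are not given in the sources used here. ERCC spike-ins took 0.758% of UMIs. Cells with 5000 to 120000 UMIs, 200 to 6000 genes and at most 5% spike-in UMIs were kept. R 4.3.3 and Seurat 5.3.0 grouped them on 2000 variable genes and 14 components at resolution 0.5, with spike-in percentage, cell cycle and gene number regressed out, and marker lists named the clusters. Doublets were not called.

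For each class, the UMI counts of a fragment's cells were added up where it had 5 or more of them. These sums entered edgeR 4.0.16 (quasi-likelihood, robust, TMM factors, filterByExpr) with nipple, duct and TEB in 1 design and without a block. P-values were adjusted by Benjamini-Hochberg over all genes tested, at 0.05. The study compared cells by a Wilcoxon test, whereas fragments were the replicates here. Class by location terms had fragment as a covariate. Class sums held 89639 to 2061534 UMIs in the 4 classes tested. Intervals and floors take in counting error alone. The RNA carried over from other wells was estimated from fibroblast and myeloid markers in the other classes. Members and lists were chosen with earlier results of these data known. The text names all 10 members, up to 4 genes per list and direction with the smallest p, and the 5 genes most like *Mycn* and *Slc6a15* (mean of at least 20 CPM). Scripts were tested on simulated data. Alternatives were RLE factors, DESeq2 1.42.0, no filter on low counts, thinning to 5000 UMIs, at least 10 cells, only the locations compared, resolution 1, no regression, G1 cells only, a replicate block, leaving out each fragment and, added after the data were seen, scaling on spike-in UMIs. Duct and TEB shared the label numbers 31 and 32, but the deviations of same-numbered fragments did not go together (r = 0.00126 and -0.0124), so the numbers were not taken as pairs.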

Additional observations from a re-analysis of the deposited data

Results flagged for a closer look

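In basal-like TEB fragments, T33, a sum of only 6 cells, stood above the other 5 for *Slc38a1* (112 CPM, the next 56.6) and for *Slc7a5* (77.3 CPM, the next 54.4). Among nipple basal fragments N22 held the only *Slc6a15* UMI (1.66 CPM). Among fibroblast-like duct fragments D32, a sum of only 5 cells, stood apart for *Myc* (489 CPM, the next 265). Of 81 groups of 4 to 6 fragments checked, 4 had such a fragment, and chance gives about 1 in 20. The differences between locations were themselves different in basal-like cells and in ER+ luminal-like cells for *Slc3a2* (edgeR adjusted p = 1.6e-05) and *Slc38a2* (edgeR adjusted p = 0.0013). Basal-like cells also differed in this from ER- luminal-like cells for *Slc3a2* (edgeR adjusted p = 0.0031) and *Slc38a2* (edgeR adjusted p = 0.00087).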

How the results depend on the processing

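Of 339 counts of called members under the alternatives, 313 stayed within 1.5 times their value and 26 did not, and of 399 log2 differences of called members 342 kept their call, 55 lost it and 2 reversed. Per spike-in UMI, *Slc3a2* and *Slc38a2* in basal-like cells reversed between nipple and TEB (-0.60 and -0.30). In basal-like cells the number of members called between nipple and TEB was 5, but 3 with thinned cells, 3 with at least 10 cells per fragment and 0 with G1 cells, and 4 to 5 when fragments were left out. Per spike-in UMI it was 3, namely *Slc38a1*, *Slc7a5*, which is not among the 5, and *Slc3a2* in the opposite direction. The 2 called between duct and TEB became 1 with thinning, with at least 10 cells and with G1 cells, 0 without regression, 0 with the replicate block and 4 per spike-in UMI. Leaving out fragments gave 1 to 3, with 1 without D52. In ER+ luminal-like cells the 1 member called between nipple and TEB became 2 with DESeq2, with at least 10 cells and without N22 (1 to 2 over all fragments left out), and the 1 called between duct and TEB became 0 at resolution 1 and 0 with the replicate block. In ER- luminal-like cells the 2 called between nipple and TEB and the 3 called between duct and TEB became 0 with at least 10 cells and 0 with G1 cells, where 1 TEB fragment was left and assumed to vary like the others, and 0 per spike-in UMI. Leaving out fragments gave 1 to 3 for duct against TEB, with 1 without T34 or T42. Between nipple and duct 1 was called per spike-in UMI, and in fibroblast-like cells 1 between nipple and TEB with at least 10 cells. Without regression 66 TEB cells took the epidermal keratinocyte-like name, and 17 TEB and 1 nipple cell stayed basal-like. The cause of these moves was not tested. The block rested on 2 shared numbers that did not pair the fragments. The number called between nipple and duct in basal-like cells was 2 under every alternative run, but per spike-in UMI *Slc38a2* lost its call (0.43, edgeR adjusted p = 0.11) and *Slc38a1* gained one (edgeR adjusted p = 0.037). The number in each class by location test was 2 under every alternative run, apart from 3 per spike-in UMI against ER+ luminal-like cells.

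No block was run for ER- luminal-like and fibroblast-like cells, which shared 1 number. Also not run were scaling without regression for basal-like nipple pairs and the class by location tests, DESeq2 for the latter, and the ER- class by location test with at least 10 cells or G1 cells. For *Max* in basal-like cells the SE (0.919 for nipple against TEB) was too large for a log2 difference like that of *Myc* to be detectable.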
